A study of Mus musculus with 6 samples.

Results

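Hyaluronan is a long, unsulfated sugar polymer of the extracellular matrix, and 10 genes that make, degrade or bind it were followed here in melanoma grafts from the footpad and the flank skin. They are the synthases Has1, Has2 and Has3, the degrading enzymes Hyal1 and Hyal2 and the depolymerization factor Cemip, and the hyaluronan-binding genes Cd44, Vcan, Tnfaip6 and Lyve1. They were chosen as a list of gene symbols by their known roles, and all 10 were found among the 45777 genes of the deposited table. Total RNA was sequenced from 3 tumors of the hind footpad and 3 tumors of the flank skin, 1 library each, all grown from B16F10 cells, a mouse melanoma line, so that a weight-bearing site could be compared with a site that bears no weight. The labels give Foxn1-/- hosts aged 8 weeks for all 6 tumors, while the study's methods describe grafts in C57BL/6J and in Foxn1-null mice and name no host for the sequenced tumors. Foxn1-null mice lack a functional thymus, and Cd3d and Cd3g, 2 of 6 T cell marker genes, had no read in any tumor, with a summed level of the 6 genes of at most 0.204 CPM (read counts scaled to library size). The methods state that B16F10 cells were isolated from the implantation sites, but name no way of separating them from host cells. Markers of host cell types were read in every tumor, so the values are taken here as those of tumor and host cells together.

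Hyaluronan chains are polymerized at the plasma membrane by the synthases, from UDP-glucuronic acid and UDP-N-acetylglucosamine, and are extruded into the matrix as they grow. Outside the cell the chains are cross-linked and loaded with proteoglycans such as versican, held at the cell surface by receptors such as CD44, and cleaved and taken up for breakdown in lysosomes. In skin, hyaluronan is made mainly by fibroblasts of the dermis and by keratinocytes, and it drains through lymphatic vessels, whose endothelium carries LYVE1.

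In GRCm38.p6, RefSeq places the synthases Has1 at chr17:17833691-17855589, Has2 at chr15:56665627-56694546 and Has3 at chr8:106870242-106882902. The enzymes and factor of turnover are Hyal1 at chr9:107576950-107581699, Hyal2 at chr9:107567873-107572778 and Cemip at chr7:83932857-84086693, with the hyaluronidases near each other. The binding genes are Cd44 at chr2:102811141-102901669, Vcan at chr13:89655309-89743027, Tnfaip6 at chr2:52038113-52056681 and Lyve1 at chr7:110850607-110862953.

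Promoter sequence was at hand in the RefSeq table for 7 of the 10 genes, and not for Has2, Has3 and Lyve1. The 250 bases before the table's start site are shown for Tnfaip6, Vcan and Has1, 3 of the genes that were higher in footpad tumors, because YAP acts on DNA through TEAD factors, often beside AP-1, and the study is about YAP. They were read 5′ to 3′ on the gene's strand from GRCm38.p6, at chr2:52037863-52038112 (plus strand) for Tnfaip6, chr13:89742513-89742762 (minus strand) for Vcan and chr17:17855189-17855438 (minus strand) for Has1. Capitals mark matches to GGAATG, the core of the TEAD motif, or to TGANTCA, the AP-1 motif, on either strand.
Tnfaip6: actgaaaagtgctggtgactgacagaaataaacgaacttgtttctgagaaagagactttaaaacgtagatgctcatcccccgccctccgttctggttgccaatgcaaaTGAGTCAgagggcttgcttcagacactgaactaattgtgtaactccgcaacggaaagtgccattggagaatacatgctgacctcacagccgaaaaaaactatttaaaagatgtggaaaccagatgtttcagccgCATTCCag
Vcan: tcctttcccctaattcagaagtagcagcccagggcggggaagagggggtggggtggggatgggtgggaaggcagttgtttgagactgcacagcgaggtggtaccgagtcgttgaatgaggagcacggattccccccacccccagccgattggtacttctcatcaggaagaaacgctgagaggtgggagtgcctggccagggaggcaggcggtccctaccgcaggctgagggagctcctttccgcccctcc
Has1: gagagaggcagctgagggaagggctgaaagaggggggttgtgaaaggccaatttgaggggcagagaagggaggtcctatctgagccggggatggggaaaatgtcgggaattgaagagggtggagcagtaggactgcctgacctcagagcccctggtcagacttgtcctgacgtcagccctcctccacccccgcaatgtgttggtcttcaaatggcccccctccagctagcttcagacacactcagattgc
The Tnfaip6 window held CATTCC, the reverse complement of GGAATG, from 8 to 3 bases before the start, and TGAGTCA from 142 to 136 bases before it. Neither the Vcan nor the Has1 window held a match to these letters. Among the other windows, those of Hyal1, Cemip and Cd44 held none, and that of Hyal2 held CATTCC from 229 to 224 bases before its start. GGAATG on either strand was in 12.6% of all 32851 windows of this length and TGANTCA in 6.75%, so that the matches are a description of letters and not of bound sites. For Tnfaip6, Vcan and Has1 another annotated start lies inside or upstream of the window.

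Has1, Vcan, Tnfaip6 and Lyve1 were higher in footpad tumors than in flank tumors, and no member was lower. A gene was called where the adjusted p of edgeR's quasi-likelihood test, corrected by Benjamini-Hochberg over all 17210 genes tested, was under 0.05 and the fold was 2 or more. Of the 10 genes, 9 passed the filter on low counts and 4 were called, all higher in the footpad, where 2.89% of all genes tested were called higher and 3.76% in either direction. DESeq2 called 5 of the 9, the same 4 and Cemip, all higher, where it called 6.73% of 17158 genes higher and 2.05% lower. All 3 footpad tumors lay above all 3 flank tumors for 7 of the 10 genes, namely Has1, Has2, Cemip, Cd44, Vcan, Tnfaip6 and Lyve1, against 17.5% of all genes tested, and the opposite order was seen for none of the 10, against 14.9% of all genes tested. In FPKM, the deposited length-scaled unit, Hyal1 was separated as well, which made 8 of the 10, with no share of all genes taken on that scale. Has1, Has2 and Cemip had fewer than 10 reads in at least 1 flank tumor and passed the filter with the help of their footpad tumors. In bulk RNA of this kind, more cells of a type and more RNA per cell cannot be told apart. The labels do not say which mice the tumors came from, so the p-values measure the spread between these tumors. The study describes B16F10 grafts placed at the same time in flank and footpad, for C57BL/6J and for Foxn1-null hosts. It gives 3 mice for its footpad over flank expression values, so footpad and flank tumors may share mice. The main fit took the tumors as independent, and with the replicate number as a block none of the 4 calls held.

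**Figure D1:**
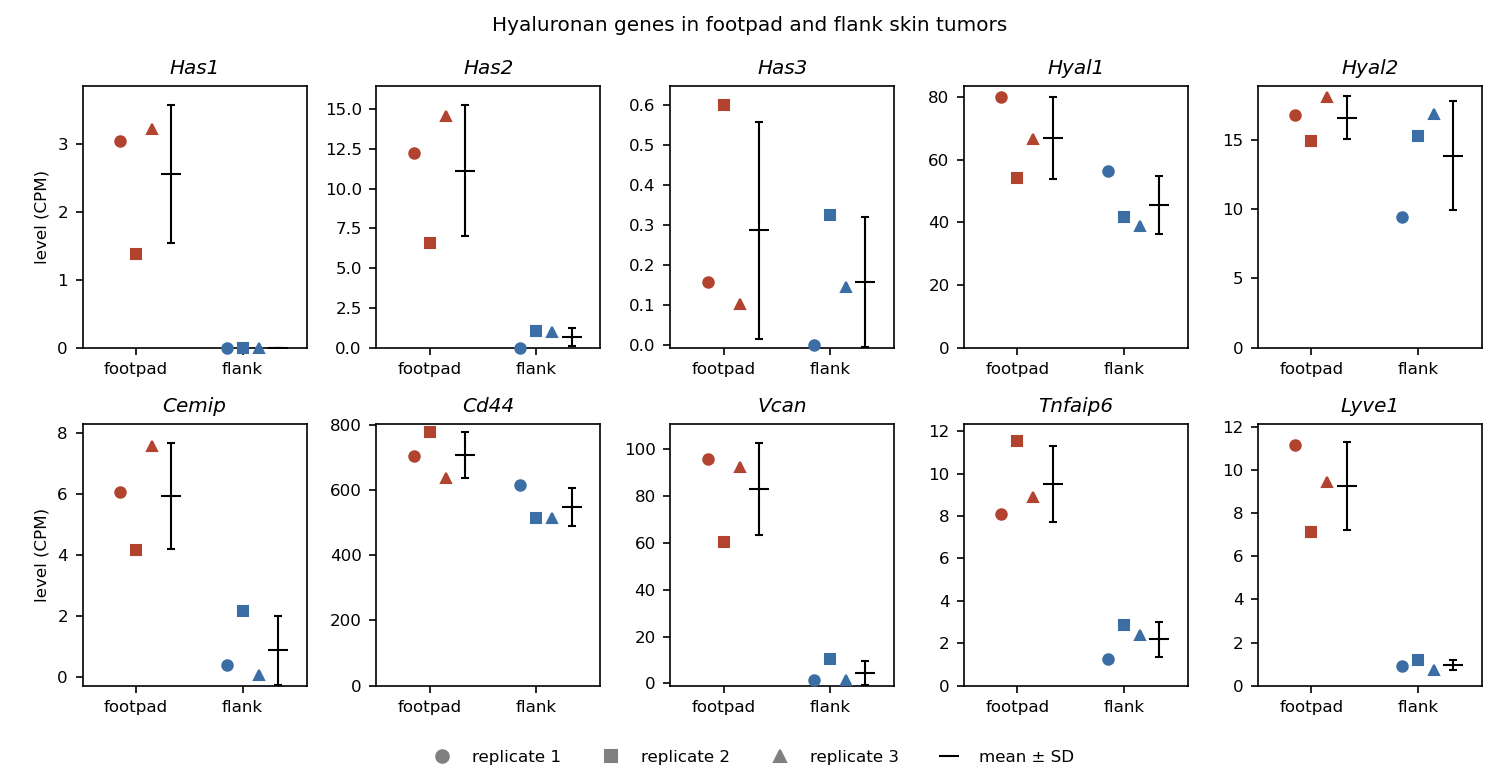
Level in CPM (vertical axes, a separate scale for each gene) of the 10 hyaluronan genes in 3 footpad tumors (red) and 3 flank tumors (blue), each tumor 1 point and the bar the mean ± SD. Footpad and flank points do not overlap for 7 genes and overlap for Has3, Hyal1 and Hyal2.

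Depth ranged from 46529649 to 66364366 reads counted on genes per tumor, so that 3 reads, used here as the detection floor, stood for 0.0438 to 0.0673 CPM. The libraries differed in their levels of markers of other tissue. The summed level of 12 fibroblast markers was 2800 to 3810 CPM in footpad tumors and 96.2 to 437 CPM in flank tumors, with all 12 higher in every footpad tumor than in any flank tumor and Col3a1, a fibrillar collagen chain, the most abundant. Keratinocyte markers summed to 436 CPM and skeletal muscle markers to 470 CPM in footpad replicate 2, against at most 21.6 and 60.9 CPM in the other tumors. Some zeros stood alone: 19 genes had no read in flank replicate 1 and at least 20 in each of the other 5 tumors, with 0 to 13 such genes in the other libraries, and a listed zero may therefore not be a true absence.

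Has2 encodes the main hyaluronan synthase of mesenchymal cells. Its level was 12.3, 6.59 and 14.6 CPM in footpad replicates 1, 2 and 3, and 0, 1.03 and 0.959 CPM in flank replicates 1, 2 and 3. The lowest footpad tumor was 6.42 times the highest flank tumor. The log2 fold change was 4.06 ± 1.07 (SE, n = 3 per site), and the edgeR test did not call it (adjusted p = 0.0695). Has2 was among the 19 genes listed at 0 in flank replicate 1 alone, and without that tumor the log2 fold change was 3.48 ± 0.418 (SE) and passed (edgeR adjusted p = 0.0277, range over all 12 alternatives 0.00647 to 0.193). Has2os, a noncoding gene inside Has2 on the opposite strand, had at most 8 reads in any tumor.

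Has1, the synthase usually found at the lowest activity, was read in all footpad tumors and in no flank tumor. It had 136, 95 and 158 reads in footpad replicates 1, 2 and 3, or 3.05, 1.39 and 3.23 CPM, and 0 reads in each flank tumor. The footpad mean of 2.56 ± 1.02 CPM (SD, n = 3) was at least 50.8-fold higher than the mean flank floor of 3 reads per library, 0.0503 CPM, and the difference was called (edgeR adjusted p = 0.0139). With no flank read, Has1 passed the filter on low counts only through its footpad tumors. The call was lost without footpad replicate 1 (adjusted p = 0.0611) or footpad replicate 3 (adjusted p = 0.0718), while the bound without each footpad tumor in turn was 44.1 to 62.4. Of 12 alternatives 8 called it, and limma on log2(FPKM + 1) gave a log2 fold change of 0.435, under 2-fold, and did not call it. The length implied by the ratio of depth-scaled counts to FPKM, the length-scaled unit, was 13.8 and 12.8 kb in footpad replicates 1 and 3 but 2.30 kb in footpad replicate 2, where the known Has1 transcript is 2.1 kb. RefSeq also holds a predicted Has1 model, with which the gene spans chr17:17833691-17855589 and overlaps Spaca6 on the opposite strand over 9320 bases. Spaca6 had 80 to 135 reads in footpad tumors and 100 to 157 in flank tumors, and whether reads of Spaca6 were counted as Has1 was not tested. By FPKM, Has1 was highest in footpad replicate 2, at 0.622, against 0.212 and 0.258 in replicates 1 and 3.

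Has3, a synthase of epithelia that makes shorter chains, was near the floor at both sites. It had 7, 41 and 5 reads in the footpad tumors and 0, 19 and 9 in the flank tumors, and the sites overlapped. It did not pass the filter, and without a filter its log2 fold change was 0.87 ± 1.20 (SE, edgeR adjusted p = 0.706, range over the 5 alternatives that gave a value 0.646 to 0.868). Its highest value, 0.598 CPM, was in footpad replicate 2, the tumor with the highest keratinocyte markers.

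Per length, Has2 was the most abundant of the synthases in every tumor that had synthase reads. Summed over the 3 synthases, FPKM was 2.60, 2.17 and 3.39 in the footpad tumors and 0, 0.285 and 0.219 in the flank tumors. Has2 made up 83.4% ± 14.1 of that sum in footpad tumors (SD, n = 3) and 86.1% ± 6.09 in the 2 flank tumors with a synthase read. The shares differed by less than their spread. The two-sided exact permutation test gave p = 1, but with 3 tumors against 2 it could not pass at any difference. Has1 took 8.16%, 28.6% and 7.59% of the footpad sum and 0% of the flank sums, and Has3 took 0.447% to 4.33% in the footpad and 18.2% and 9.63% in flank replicates 2 and 3. Neither could pass the test (exact p = 0.2 for both), since 0.2 is the smallest p that 3 tumors against 2 allow.

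**Figure D2:**
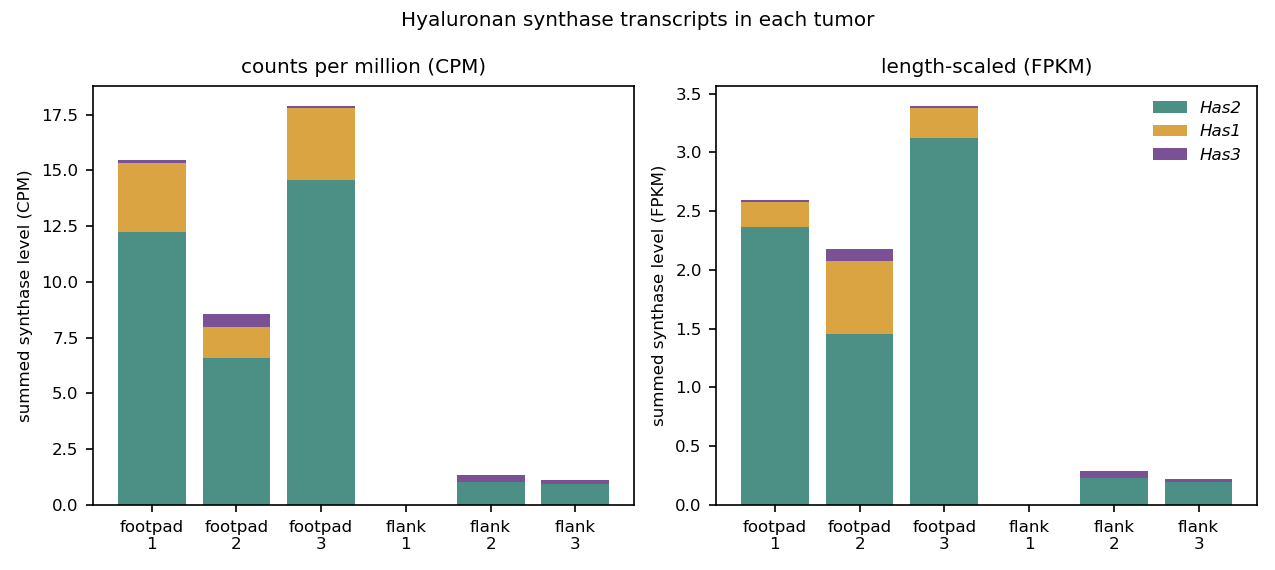
Stacked levels of Has2, Has1 and Has3 in each of the 6 tumors, in CPM (left axis) and in length-scaled FPKM (right axis), on scales that start at 0. Has2 fills most of every bar, flank replicate 1 has no synthase read, and the Has1 part of footpad replicate 2 is larger in FPKM (0.622) than that of the other footpad tumors.

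Neither hyaluronidase was called, and in CPM the sites overlapped for both. Hyal1, a lysosomal hyaluronidase, measured 80.1, 54.1 and 66.6 CPM in footpad replicates 1, 2 and 3, against 56.3, 41.5 and 38.8 CPM in flank replicates 1, 2 and 3. Flank replicate 1 lay above footpad replicate 2 on this scale, while by FPKM all footpad tumors (17.6 to 22.7) lay above all flank tumors (11.9 to 15.9). The log2 fold change of 0.55 ± 0.202 (SE) was not called (edgeR adjusted p = 0.143). Hyal1 shares 1031 bases with Naa80 and 404 bases with Hyal3 on its own strand, so reads there cannot be assigned to 1 gene, but Hyal3 had only 5 to 32 reads in any tumor and Naa80 726 to 798, beside 2429 to 3707 for Hyal1.

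Hyal2, a hyaluronidase anchored at the cell surface that cleaves long chains, measured 16.8, 14.9 and 18.1 CPM in the footpad tumors, against 9.42, 15.3 and 16.9 CPM in the flank tumors. Only flank replicate 1 stood below the footpad range, and the log2 fold change was 0.26 ± 0.238 (SE, edgeR adjusted p = 0.526). The ratio of Hyal1 to Hyal2 FPKM was 2.40 to 3.22 in the footpad and 1.56 to 3.90 in the flank. Set against the summed FPKM of both enzymes, the summed synthase FPKM was 8.75%, 8.71% and 11.5% in the footpad tumors and 0%, 1.33% and 1.12% in the flank tumors. Synthase transcript was thus the scarcer of the 2 classes in every tumor, and the scarcest in the flank.

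Cemip, a secreted or membrane-bound factor needed for hyaluronan depolymerization by skin fibroblasts, had the largest coefficient of variation over the flank tumors of the 8 members drawn in the plot of fold changes, 129%. It measured 6.06, 4.14 and 7.57 CPM in the footpad tumors, against 0.379, 2.17 and 0.0799 CPM in the flank tumors. Every footpad tumor was above every flank tumor, and the log2 fold change was 2.75 ± 0.972 (SE), which edgeR did not call (adjusted p = 0.134). Without flank replicate 2, the highest of its site, it was 4.68 ± 0.726 (SE) and passed (adjusted p = 0.0323, range over the 12 alternatives 0.0104 to 0.290). Flank replicate 2 was also the flank tumor with the highest fibroblast markers, and the part of these cells in the Cemip values was not tested.

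Vcan encodes versican, a large chondroitin sulfate proteoglycan that binds hyaluronan through its amino-terminal domain, and it had the largest fitted fold of the members read at both sites. Its level was 95.8, 60.5 and 92.5 CPM in footpad replicates 1, 2 and 3 and 1.28, 10.3 and 1.39 CPM in flank replicates 1, 2 and 3. The lowest footpad tumor was 5.86 times flank replicate 2, which stood well above the other flank tumors. The log2 fold change was 4.26 ± 0.835 (SE) and was called (edgeR adjusted p = 0.0365). Without flank replicate 2 it was 5.95 (adjusted p = 0.0018), and without footpad replicate 1, footpad replicate 3, flank replicate 1 or flank replicate 3 the call was lost (adjusted p = 0.119, 0.125, 0.0672 and 0.109).

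Versican transcripts differ in length, from 2.27 to 12.4 kb in RefSeq, by the inclusion of 2 large exons that carry the sugar chains. The length implied by counts and FPKM was 12.01, 11.35 and 11.84 kb in the footpad tumors and 14.11, 10.41 and 13.88 kb in the flank tumors. Its coefficient of variation over the tumors, 11.8%, was above that of 96.6% of the 12327 genes with at least 50 reads in every tumor, whose median was 2.21%. The flank tumors, with 74, 604 and 87 reads, bracketed the footpad tumors. Gm4117, a noncoding gene that overlaps Vcan on the opposite strand, had 5 to 21 reads in any tumor. These are ratios of 2 deposited columns and do not count isoforms.

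Tnfaip6 encodes TSG-6, a secreted protein that binds hyaluronan and transfers heavy chains of inter-alpha-inhibitor onto it. It measured 8.10, 11.5 and 8.90 CPM in the footpad tumors, against 1.28, 2.86 and 2.40 CPM in the flank tumors. The sites were separated by 2.84 times between the nearest tumors, and the log2 fold change of 2.13 ± 0.347 (SE) was called (edgeR adjusted p = 0.0239). The call was lost without footpad replicate 1, footpad replicate 3 or flank replicate 3 (adjusted p = 0.0812, 0.104 and 0.0887), with a log2 fold change between 1.85 and 2.37 when each tumor was left out in turn.

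Lyve1, the hyaluronan receptor of lymphatic endothelium and of some tissue macrophages, had the smallest p of the 10 genes. Its level was 11.2, 7.12 and 9.45 CPM in the footpad tumors and 0.931, 1.18 and 0.735 CPM in the flank tumors, a tight group at each site. The lowest footpad tumor was 6.03 times the highest flank tumor, and the log2 fold change was 3.28 ± 0.312 (SE), which was called (edgeR adjusted p = 0.00677). The call was lost only without footpad replicate 3 (adjusted p = 0.0541) among the 6 fits that left out 1 tumor, with a log2 fold change between 3.12 and 3.46. The 7 lymphatic endothelial markers, without Lyve1, summed to 52.4 to 64.2 CPM in footpad tumors and 36.7 to 60.5 CPM in flank tumors. Prox1, the defining transcription factor of that endothelium, was at 5.3, 4.36 and 4 CPM in the footpad and 2.85, 3.73 and 3.61 CPM in the flank. None of these 7 genes was called. Of the 7, 2 separated the sites with the footpad on top, against 17.5% of all genes tested. They were Prox1 and Reln, the latter at 3.95, 1.34 and 3.35 CPM in the footpad and 0.949, 0.325 and 0.128 CPM in the flank. The opposite order was seen for 0, against 14.9%. Pdpn, the most abundant, overlapped between the sites and gave 47 of the 60.5 CPM in flank replicate 1. The 11 macrophage markers summed to 206 to 213 CPM in the footpad and 150 to 202 CPM in the flank. Of the 10 that passed the filter 1 was called, against 3.76% of all genes tested. Mertk, the most abundant, ran from 79.2 to 134 CPM, overlapped between the sites and weighed heavily in these sums. In flank replicate 1 it gave 134 of the 159 CPM. Of the 11 genes, 5 separated the sites with the footpad on top, against 17.5% of all genes tested. With the flank on top 0 did so, against 14.9%. The part of either cell type in the Lyve1 values was not tested.

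Cd44, the main cell-surface hyaluronan receptor, was the most abundant member by far. Its level was 706, 779 and 637 CPM in footpad replicates 1, 2 and 3, against 617, 514 and 514 CPM in flank replicates 1, 2 and 3. The sites did not overlap, but the nearest tumors differed by only 1.03 times. The log2 fold change was 0.37 ± 0.159 (SE) and was not called (edgeR adjusted p = 0.202, range over the 13 alternatives 0.0892 to 0.406).

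**Figure D3:**
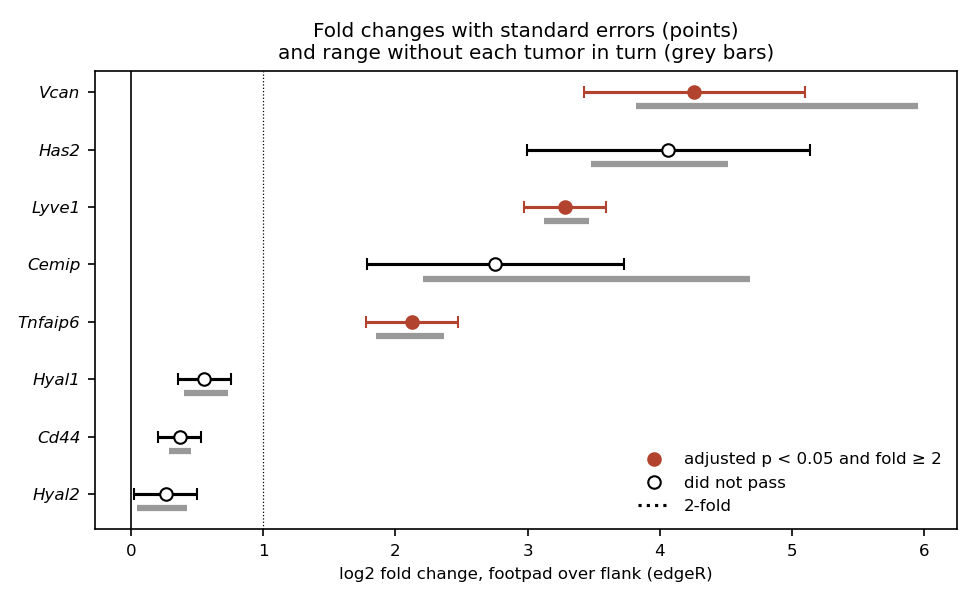
Log2 fold change of footpad over flank tumors for 8 hyaluronan genes (points with SE, edgeR), filled where the gene was called, with the range obtained on leaving out each tumor in turn as a grey bar and a dotted line at 2-fold. Vcan, Lyve1 and Tnfaip6 are called, Has2 and Cemip lie beyond 2-fold without being called, and Hyal1, Cd44 and Hyal2 lie below it. Has1, with no flank read, and Has3, which did not pass the filter, are not drawn.

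By length-scaled level, the order of the genes in the footpad was Cd44 (mean 141 FPKM), Hyal1 (20.5), Hyal2 (7.59), Vcan (7.04), Tnfaip6 (5.32), Lyve1 (3.12), Has2 (2.32), Cemip (0.582), Has1 (0.364) and Has3 (0.0429). Hyal2 and Vcan, Vcan and Tnfaip6, Lyve1 and Has2, and Cemip and Has1 had overlapping ranges of FPKM over the 3 tumors. In the flank the order was Cd44 (110 FPKM), Hyal1 (13.9), Hyal2 (6.43), Tnfaip6 (1.23), Vcan (0.416), Lyve1 (0.324), Has2 (0.144), Cemip (0.0909), Has3 (0.0244) and Has1 (0). There Tnfaip6 and Vcan, Vcan and Lyve1, Has2 and Cemip, and Cemip and Has3 had overlapping ranges. Vcan FPKM was 5.86%, 3.39% and 6.12% of Cd44 FPKM in the footpad tumors, and 0.0735%, 0.945% and 0.0966% in the flank tumors.

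The fibroblast markers moved with the members, and the values were therefore also expressed per 1000 CPM of the 12 markers summed. On this scale Has2 was 4.38, 2.34 and 3.82 in the footpad tumors and 0, 2.35 and 7.70 in the flank tumors, and the sites overlapped. Vcan was 34.2, 21.5 and 24.3 in the footpad and 13.3, 23.6 and 11.2 in the flank, and Lyve1 was 4, 2.52 and 2.48 against 9.68, 2.70 and 5.91. Both overlapped between the sites, as did Cemip. Tnfaip6 was at 2.33 to 4.08 in the footpad and 6.54 to 19.3 in the flank, and Hyal1, Hyal2 and Cd44 were likewise above in all flank tumors. The marker sum itself was 2800 to 3810 CPM in the footpad and 96.2 to 437 CPM in the flank. A gene with a smaller fold than that sum must come out lower in the footpad, so this order follows from the scale. Has1 was 0.491 to 1.09 in the footpad and had no flank read. The scale is a description, and most of the marker sum is collagen transcript. It treats each gene as if all of its RNA came with the fibroblast markers, which was not tested.

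**Figure D4:**
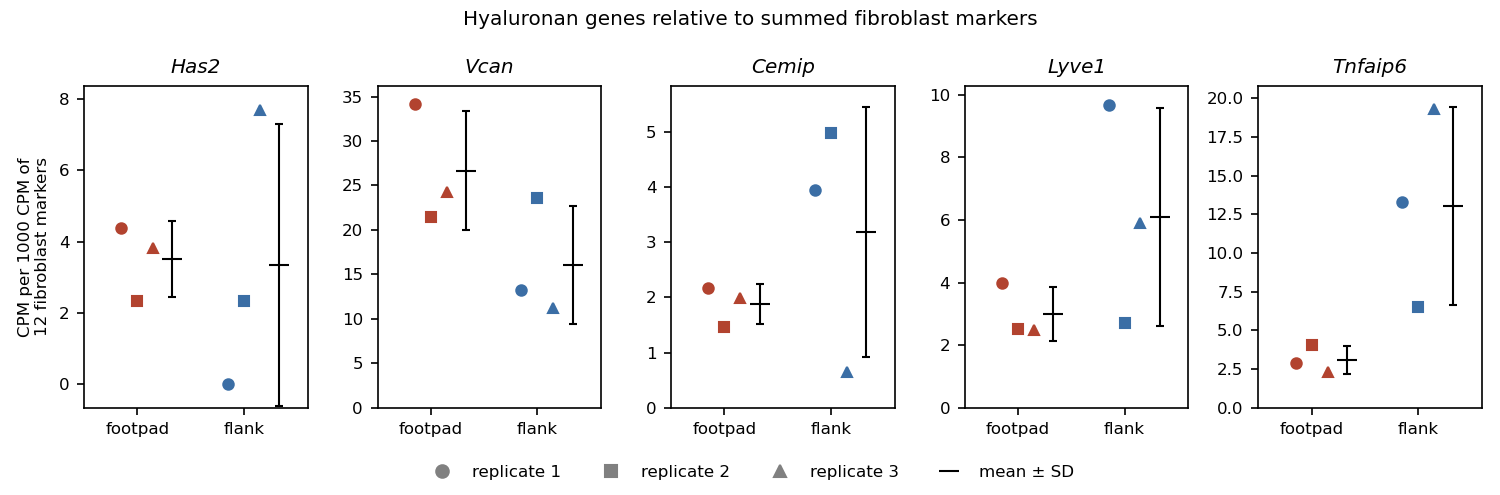
CPM of 5 hyaluronan genes per 1000 CPM of 12 summed fibroblast markers (vertical axes) in 3 footpad tumors (red) and 3 flank tumors (blue), each tumor 1 point and the bar the mean ± SD. Footpad and flank points overlap for Has2, Vcan, Cemip and Lyve1, and all flank points lie above the footpad points for Tnfaip6.

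Sums of other cell type markers separated the sites for blood endothelium and overlapped for neutrophil and melanoma markers. Markers of blood endothelium, 8 genes with Vwf the most abundant, summed to 295 to 314 CPM in footpad tumors and 159 to 197 CPM in flank tumors. Neutrophil markers, led by S100a9, ran from 6.61 to 341 CPM in the footpad and from 4.22 to 28.8 CPM in the flank. The melanoma markers, 7 genes led by Tyrp1, summed to 9800 to 17900 CPM in the footpad and 14400 to 24900 CPM in the flank, and none was called. The part of these cells in the values of the members was not tested.

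Of 45 other genes of hyaluronan biology, 34 passed the filter. Of these, 3 were called higher in the footpad, against 2.89% of all genes tested, and 1 lower, against 0.872%. None of the 7 enzymes that make the sugar precursors was called, and the smallest p was that of Pgm3, an enzyme of the UDP-N-acetylglucosamine route, at 0.44 ± 0.181 (log2, SE, edgeR adjusted p = 0.182). Of 5 tested genes of other turnover steps none was called, with Hexa, a lysosomal hexosaminidase subunit, at -0.60 ± 0.182 (adjusted p = 0.0963). The cross-linking partners held 2 genes that passed the filter, and both were called higher. Itih5, a heavy chain of the inter-alpha-inhibitor family, was at 9.34, 19.0 and 6.86 CPM in footpad tumors and 1.24, 1.06 and 1.63 CPM in flank tumors (log2 fold change 3.16 ± 0.433, adjusted p = 0.0158). Ptx3, a pentraxin that joins TSG-6 in the hyaluronan-rich matrix around the oocyte, was at 0.876, 0.438 and 1.53 CPM in the footpad and had 3, 7 and 3 reads in the flank (3.66 ± 0.687, adjusted p = 0.034).

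Bcan, the lectican brevican, was the gene called lower. It was at 0.741, 1.02 and 0.510 CPM in footpad tumors and 2.69, 2.40 and 3.63 CPM in flank tumors, without overlap (log2 fold change -1.93 ± 0.379, edgeR adjusted p = 0.0365). Hapln1, a link protein gene that is far more abundant and is named here after its values were seen, was at 51.5, 64.5 and 69.2 CPM in the footpad, against 86.7, 239.9 and 281 CPM in the flank. It was also without overlap and just missed the call (-1.71 ± 0.398, adjusted p = 0.0531), and it was called lower by DESeq2, without a filter, with 10 counts in every tumor and without flank replicate 1. Among 6 other hyaluronan receptors Layn, or layilin, was called, at 6.02, 2.58 and 8.37 CPM in the footpad and 0.707, 1.25 and 0.400 CPM in the flank (2.85 ± 0.576, adjusted p = 0.0388). Of the 5 CD44 partners and the 6 proteases that can cleave versican, none was called. The smallest p were those of Msn, or moesin, which links CD44 to actin (0.53 ± 0.156, adjusted p = 0.0899), and Adamts5, an aggrecanase (0.52 ± 0.204, adjusted p = 0.17). Without footpad replicate 1, footpad replicate 3 or flank replicate 3 none of these genes was called.

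Genes with a level pattern most like that of Has2 over the 6 tumors were Plod3, Mon1a and Camk4, with Pearson coefficients of log2 CPM of 0.998, 0.997 and 0.996. For Lyve1 they were Rnf19b, Cryab and Synj2, at 0.999, 0.997 and 0.997. These are descriptions of 6 tumors in 2 site groups, and the Has2 coefficients lean on its listed zero in flank replicate 1. A coefficient above 0.95 was reached by 325 of 17201 genes for Has2 and by 498 for Lyve1.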

How the data were processed

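Total RNA libraries of 3 footpad and 3 flank B16F10 tumors were grouped by the sample labels. The authors prepared stranded libraries, trimmed reads with Trimmomatic, checked them with FastQC 0.11.7 and aligned them with HISAT2 2.1.0 to mm10, per the submitters' processing notes. The deposited table gives unnormalized read counts for each gene and FPKM, which the authors scaled for length and depth. The counting program, its strand setting and its handling of multi-mapping reads are not given in the sources used here, so overlapping and antisense genes are uncertain.

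The test was the quasi-likelihood test of edgeR 4.0.16 under R 4.3.3 (TMM, filterByExpr at its defaults, glmQLFit, glmQLFTest, site as the only term), with Benjamini-Hochberg adjustment over 17210 genes. A gene was called at an adjusted p under 0.05 and a fold of 2 or more. The SE is the log2 fold change divided by the square root of F. CPM uses TMM library sizes. Floors cover counting error only, while the SE also holds the variation between tumors of a site. Depth was 46529649 to 66364366 reads per tumor. Biological variation (common coefficient 0.338) was larger than counting error, except at low read counts.

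Alternatives were DESeq2 1.42.0, no filter, 10 counts in every tumor, upper-quartile scaling, limma 3.58.1 on log2(FPKM + 1) and log2(FPKM + 0.1), the replicate number as a block, and leaving out each tumor. The fits were tested on simulated data, in which a larger share of the DESeq2 calls than of the edgeR calls fell on unchanged genes. Coordinates, promoter windows and transcript models are RefSeq's for GRCm38.p6, in which 45679 of 45777 gene IDs were found, with transcript lengths from GENCODE. Named genes are the members, the called genes of the other lists or, where a list had none, its gene with the smallest p, the 3 genes most like Has2 and Lyve1, the most abundant gene of each marker list, and genes overlapping a member. Prox1, Reln, Cd3d and Cd3g, beside these, are named with values that touch a member, a marker sum or the host. The members, lists and tests were chosen with earlier results of these data known. Figures were made in Python 3.11.15 with matplotlib 3.10.9.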

Additional observations from a re-analysis of the deposited data

How the results depend on the processing

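All 9 tested members kept a higher footpad level in every alternative that gave a value, and no called difference changed sign. The difference in the Has2 share of synthase FPKM, footpad minus flank, which passed no test, changed sign, from -2.7 percentage points to 1.61 without flank replicate 3 and 5.46 without footpad replicate 2. The number of members called was 3 to 6 under DESeq2, the other filters, upper-quartile scaling and limma, with Has1, Has2 and Cemip untested when 10 counts were asked of every tumor, and 0 to 5 when each tumor was left out in turn. Has2 was called by limma at either pseudocount and without flank replicate 1, and Cemip by DESeq2, by limma on log2(FPKM + 0.1) and without flank replicate 2. Over all genes, 1506 were called by DESeq2, 393 by limma on log2(FPKM + 1) and 0 to 836 on leaving out each tumor, against 647 by edgeR. Of the wider hyaluronan genes, 7 were called by DESeq2, 0 by limma on log2(FPKM + 1) and 0 to 5 on leaving out each tumor, against 4. Without footpad replicate 3, edgeR called 0 genes, while 1879 had an unadjusted p under 0.05 and a fold of 2 or more. The causes of these changes were not tested.

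Same-numbered tumors did not deviate together (correlations of 0.0544, -0.0965 and -0.115), and whether the numbers mark mice is not given in the sources used here. With the replicate block, edgeR called 0 genes, 0 members and 0 wider genes (adjusted p of 0.0552 for Lyve1, 0.0694 for Tnfaip6, 0.0724 for Has1 and 0.0888 for Vcan), while 1791 genes had an unadjusted p under 0.05 and a fold of 2 or more. The number of members without overlap was 7 by upper-quartile CPM and 8 by FPKM, with no share of all genes taken on either scale. The synthase shares moved by less than their spread between tumors in CPM and without each tumor. Depth limits Has3 at both sites and Has1 in the flank.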
